A study of Mus musculus with 10 samples.

Results

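The genes described here are 9 chemokines of the intestinal mucosa, Cxcl1, Cxcl2, Cxcl5, Cxcl9, Cxcl16, Ccl20, Ccl25, Ccl28 and Cx3cl1, taken by gene symbol from the 19456 genes listed in at least 1 library. RNA of mouse intestinal tissue was sequenced from poly-A transcripts in 10 libraries. TG mice overexpress the integrin subunit ITGB6 and WT mice are wild type, both on the C57BL/6 strain by the labels. The groups were TG after oral DSS at 2.5% (2 libraries), WT after the same DSS (2), untreated TG (3) and untreated WT (3). DSS, dextran sulfate sodium, injures the gut epithelium and was used in the study to set up a model of intestinal fibrosis. The labels used here give neither the promoter behind the transgene, nor the age of the mice, the gut segment or the length of DSS exposure. Nor do they state that each library is a separate animal, and the tests below can measure only how far these libraries spread.

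Chemokines are small secreted or membrane-tethered proteins that draw leukocytes along a gradient through G protein-coupled receptors. Cxcl1, Cxcl2 and Cxcl5 act on Cxcr2 and recruit neutrophils to inflamed mucosa. Cxcl9 is an interferon gamma-induced ligand of Cxcr3 on T cells, and Ccl20 attracts Ccr6-bearing lymphocytes and dendritic cells. Ccl25 and Ccl28 are made by gut epithelium and guide lymphocytes and plasma cells through Ccr9 and Ccr10. Cxcl16, the ligand of Cxcr6, and Cx3cl1, the ligand of Cx3cr1, are made as transmembrane proteins that sheddases release.

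Upstream sequence was looked up because Cxcl1, Cxcl2 and Ccl20 are textbook targets of NF-kB. RefSeq promoters of GRCm38.p6, the assembly behind mm10, were found for 7 of the 9 genes, with 8 starts in all because Ccl25 has a pair. The kB consensus, the motif bound by NF-kB, matched in the 250 bases before the start of Cxcl1, Cxcl2 and Ccl20 and before none of the other 5 starts. Of all 32851 promoters in the table, 3.9% hold such a match on either strand within 250 bases. The 3 sequences that hold it are shown 5′ to 3′ on the strand of the gene, with the matched bases in capitals. They lie at chr5:90890995-90891244 (plus strand) for Cxcl1, chr5:90903649-90903898 (plus strand) for Cxcl2 and chr1:83116516-83116765 (plus strand) for Ccl20.
Cxcl1: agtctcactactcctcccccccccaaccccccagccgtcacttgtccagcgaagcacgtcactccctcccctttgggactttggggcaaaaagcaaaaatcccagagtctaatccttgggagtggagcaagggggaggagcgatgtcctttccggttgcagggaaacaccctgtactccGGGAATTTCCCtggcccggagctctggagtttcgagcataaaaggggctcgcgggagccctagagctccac
Cxcl2: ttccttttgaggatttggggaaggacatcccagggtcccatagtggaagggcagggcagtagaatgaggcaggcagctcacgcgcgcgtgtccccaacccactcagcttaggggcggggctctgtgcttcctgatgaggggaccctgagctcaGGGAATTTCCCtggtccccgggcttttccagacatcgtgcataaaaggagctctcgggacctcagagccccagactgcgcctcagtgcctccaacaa
Ccl20: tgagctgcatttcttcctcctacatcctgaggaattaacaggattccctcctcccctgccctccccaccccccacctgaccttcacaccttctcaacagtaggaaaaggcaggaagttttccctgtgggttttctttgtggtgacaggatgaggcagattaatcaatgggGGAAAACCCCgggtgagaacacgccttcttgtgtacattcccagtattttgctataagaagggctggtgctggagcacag

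In Cxcl1 and Cxcl2 the consensus matched on both strands, in stretches shifted by 1 base, so each gene has an overlapping pair of matches. The Cxcl1 match covers bases -71 to -62 on the plus strand and -70 to -61 on the minus strand. In Cxcl2 it covers -97 to -88 and -96 to -87. Both genes share the run GGGAATTTCCCTGG of 14 bases, starting at -71 in Cxcl1 and -97 in Cxcl2. The Ccl20 match lies on the minus strand at -80 to -71. The gamma activated site (TTC and GAA 3 bases apart), a motif of interferon gamma-induced genes, matched in none of the 8 promoters and in 7.02% of all promoters. TTTAT, a short motif bound by CDX factors, matched before Cxcl1, Cxcl2, Cxcl9, Cx3cl1 and 1 start of Ccl25, and in 37.3% of all promoters. It does not overlap the kB matches. A match only describes these letters, and its absence says nothing about the factor.

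**Figure D1:**
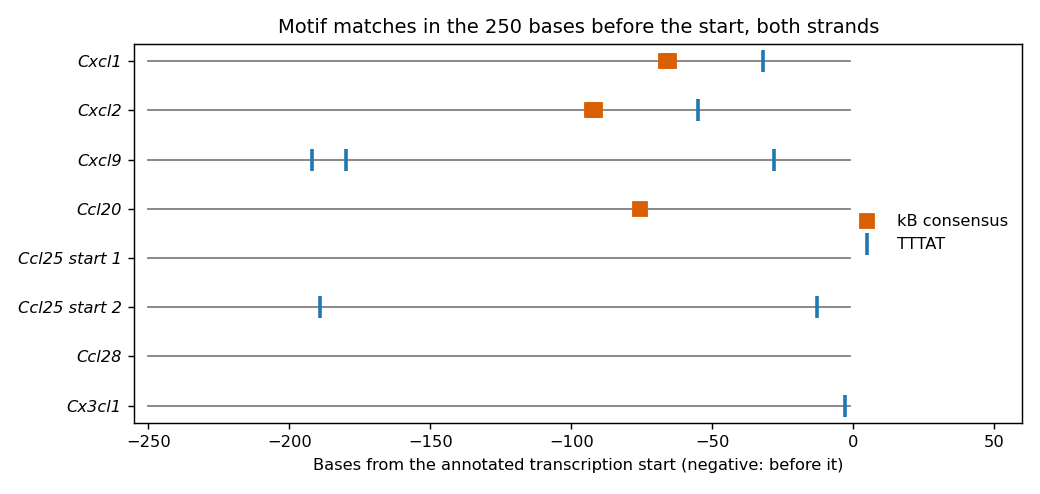
Matches to the kB consensus (orange squares) and TTTAT (blue ticks) on either strand in the 250 bases before each annotated start, with distance from the start in bases on the x axis. The kB matches lie before Cxcl1, Cxcl2 and Ccl20, and no other line carries a square.

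The libraries held 15393859 to 18284704 expected counts each. Human ITGB6 stood at 2056 to 2365 CPM (expected counts scaled to library size) in TG DSS libraries and 3520 to 3924 CPM in untreated TG libraries, against at most 1.17 CPM in any WT library. Markers of gut epithelium, 10 genes, summed to 19302 to 24854 CPM over the 10 libraries, and 12 colon genes to 10910 to 23022 CPM against 414 to 916 CPM for 16 small intestinal genes. Endothelial markers, 8 genes, summed to 6.34 to 12.6 CPM. Smooth muscle markers, 7 genes, summed to 78.5 to 120 CPM, with Acta2, Des and Actg2 each at most 1.33 CPM. How much of each library came from cells other than epithelium was not tested. Xist was at 287 to 720 CPM in the 4 DSS libraries and at most 0.439 CPM in the 6 untreated ones. Kdm5d, on the Y chromosome, was at 0 CPM in the 4 DSS libraries and 25.8 to 46.1 CPM in the untreated ones. DSS and sex therefore cannot be told apart in any comparison of DSS with untreated libraries. The library untreated TG replicate 1 stood apart, with 93.3 CPM summed over 6 pan-leukocyte genes, where the other untreated libraries had 232 to 526 CPM.

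Per unit of length, Cx3cl1 and Ccl28 were by far the most abundant of the 9 transcripts. In the authors' FPKM (fragments scaled by gene length and library size), Cx3cl1 ranged from 31.8 to 50.1 and Ccl28 from 19.9 to 52.2 over the 10 libraries, and no other member passed 14.8. Between them, Cx3cl1 held 29.0 to 62.3% and Ccl28 25.0 to 41.9% of the FPKM summed over the 9 genes. In untreated WT tissue the order of mean FPKM was Cx3cl1, Ccl28, Ccl25, Cxcl16, Cxcl1, Ccl20, Cxcl9, Cxcl5 and Cxcl2. The means there were 42.8 ± 3.13 for Cx3cl1, 31.3 ± 1.25 for Ccl28, 3.603 ± 1.18 for Ccl25 and 0.117 ± 0.0982 FPKM for Cxcl2 (SD, n = 3). Neighbours in that order overlapped in their library values from Ccl25 to Cxcl16 and from Cxcl1 through Cxcl5, and not at the other steps. Cxcl2 was last of the 9 in untreated WT tissue and next after Cx3cl1 and Ccl28 by mean in both DSS groups, where it had 7.30 and 4.70 FPKM in TG DSS libraries and 14.75 and 9.48 FPKM in WT DSS libraries. It overlapped the next in order in both groups, Cxcl16 in TG DSS and Cxcl5 in WT DSS, and in WT DSS replicate 2 Cxcl5 (9.67 FPKM) was above it. Its share of the summed FPKM was 4.87 to 6.55% in TG DSS and 8.37 to 10.01% in WT DSS, against 0.380 to 1.11% in untreated TG and 0.0708 to 0.264% in untreated WT.

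Calls are genes with an adjusted p under 0.05 in edgeR's quasi-likelihood test over 14072 genes, with Benjamini-Hochberg adjustment, and all 9 chemokines were tested. In TG, 3 of the 9 chemokines rose after DSS (Cxcl2, Cxcl5 and Cxcl16), where 5.48% of all genes were called, 3.33% higher and 2.15% lower, and their median log2 change was 1.45 against 0.01 over all genes. In WT, 6 of the 9 rose after DSS (those 3 with Cxcl1, Cxcl9 and Ccl20), where 19.8% of all genes were called, 10.2% higher and 9.62% lower, and their median log2 change was 1.99 against 0.00. None fell in either genotype. The comparisons share groups of libraries, so their values are not independent of each other. Where groups are said below to overlap or to stand apart, the share of all genes doing so was not counted. Both of these comparisons carry the difference in sex described above. The interaction of genotype and DSS given below carries it as well, so it cannot tell DSS from sex. Between TG and WT, 0 of 9 were called after DSS, where 0.185% of all genes were called, 0.178% higher and 0.00711% lower. In untreated tissue 0 of 9 were called, where 3.7% of all genes were called, 2.26% higher and 1.44% lower. At an unadjusted p under 0.05 there were 2 of the 9 after DSS and 1 in untreated tissue by edgeR. DESeq2 called 1 in each, beside 255 of all genes after DSS and 1052 in untreated tissue. Of all 14072 genes, 1578 were at that unadjusted level after DSS and 2919 in untreated tissue by edgeR. The interaction of genotype and DSS called 0 of the 9, where 0.846% of all genes were called. It had 3 of the 9 at an unadjusted p under 0.05 by edgeR, beside 1703 of all 14072 genes. DESeq2 called 1 for the interaction, beside 426 of all genes. For DSS against untreated, 2826 of all 14072 genes were at that unadjusted level in TG and 4733 in WT. The balance of calls over all genes moved with the scaling. With TMM scaling, TG against WT had 25 higher and 1 lower after DSS and 318 higher and 202 lower untreated, and total count scaling gave 6 and 1 after DSS and 235 and 382 untreated. DSS against untreated had 468 higher and 303 lower in TG and 1434 and 1354 in WT with TMM, and 413 and 402 in TG and 1146 and 1700 in WT with total counts. In bulk tissue, fewer cells of a type and less RNA per cell cannot be told apart.

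**Figure D2:**
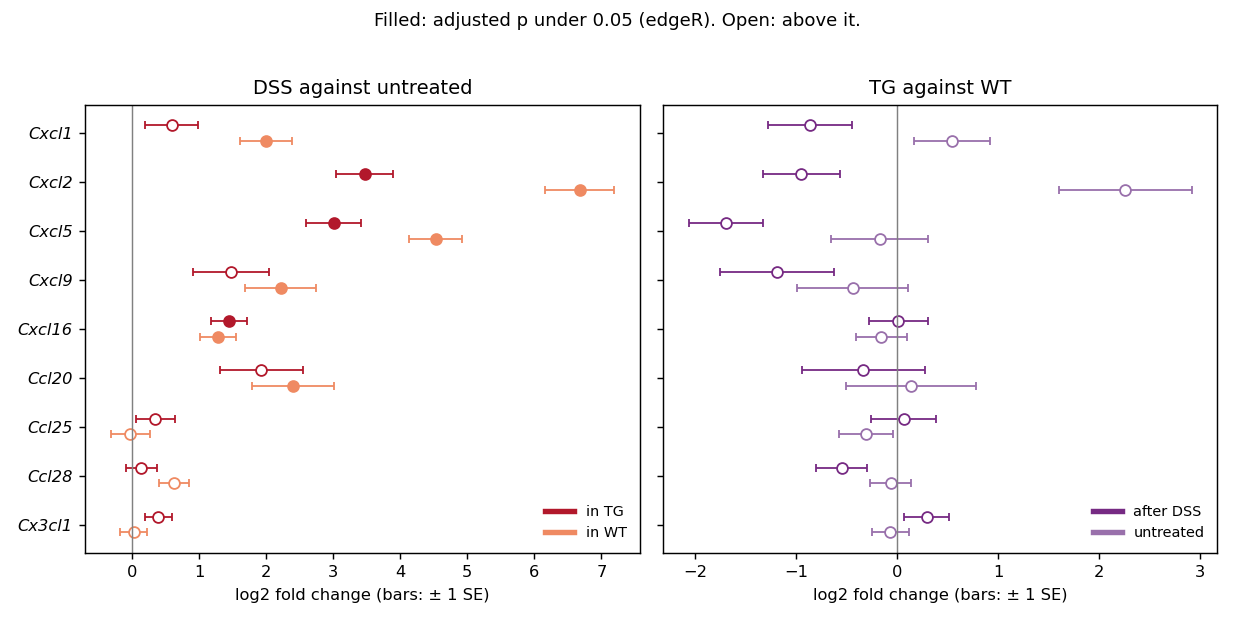
Log2 fold change (x axis, points) with 1 SE (bars) for each chemokine, DSS against untreated on the left (red in TG, orange in WT) and TG against WT on the right (dark purple after DSS, light purple untreated). Filled points have an adjusted p under 0.05, and the filled points are 3 in TG and 6 in WT on the left and none on the right.

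The neutrophil attractants Cxcl1, Cxcl2 and Cxcl5 lie in a cluster on chromosome 5, at chr5:90891245-90893121, chr5:90903899-90905938 and chr5:90759298-90761625. Cxcl2 and Cxcl5 rose after DSS in both genotypes and Cxcl1 in WT, and after DSS all 3 read lower in TG than in WT without passing the test. Cxcl1 had 2.88 and 3.61 CPM in TG DSS libraries, 7.19 and 5.23 CPM in WT DSS libraries, 1.04, 2.65 and 3.09 CPM in untreated TG libraries, and 1.28, 1.93 and 1.69 CPM in untreated WT libraries. The WT DSS libraries were the highest of all, and the TG DSS libraries overlapped the untreated TG ones. Cxcl2 had 7.78 and 5.02 CPM in TG DSS, 15.7 and 10.1 CPM in WT DSS, 0.289, 0.893 and 0.606 CPM in untreated TG, and 0.0607, 0.249 and 0.0650 CPM in untreated WT. No pair of groups overlapped for Cxcl2. Cxcl5 had 2.99 and 4.10 CPM in TG DSS, 8.52 and 16.0 CPM in WT DSS, 0.405, 0.722 and 0.243 CPM in untreated TG, and 0.478, 0.435 and 0.708 CPM in untreated WT. Both DSS groups stood clear of each other and of the untreated groups, which overlapped.

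**Figure D3:**
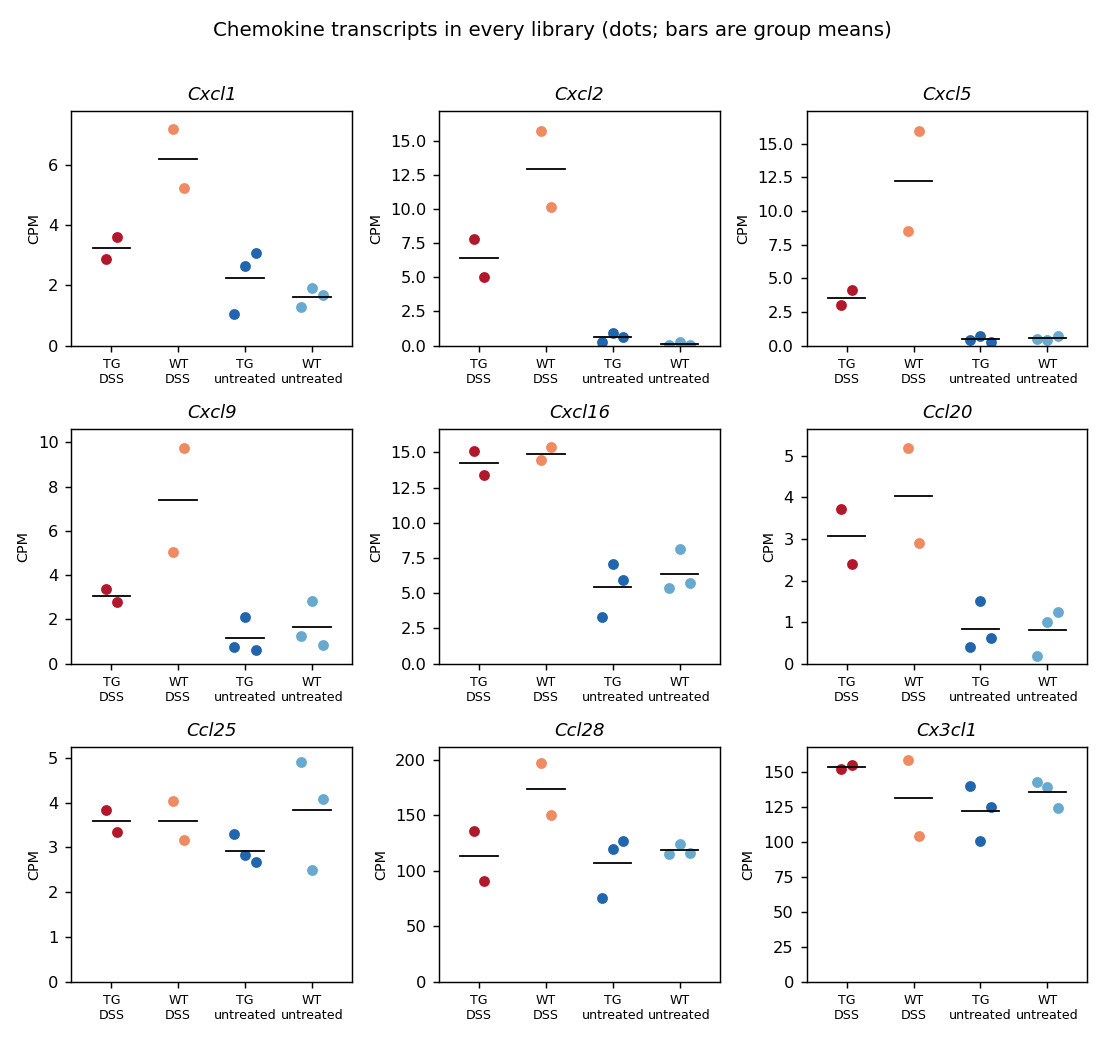
CPM (y axis, linear from 0) of each of the 9 chemokines in every library (dots), with the group mean as a bar, for TG DSS, WT DSS, untreated TG and untreated WT. Cxcl1, Cxcl2 and Cxcl5 are highest in the WT DSS libraries, at 5.23 to 16.0 CPM, and all 4 DSS libraries are above all 6 untreated ones for Cxcl2, Cxcl5, Cxcl16 and Ccl20. The share of all genes with such an order was not counted.

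After DSS in TG, Cxcl2 rose by a log2 fold change of 3.47 ± 0.42 (SE, adjusted p = 0.00139) and Cxcl5 by 3.005 ± 0.41 (adjusted p = 0.00277). Cxcl1 stood at 0.59 ± 0.39 and did not pass (adjusted p = 0.454). In WT the same contrast gave 6.67 ± 0.52 for Cxcl2 (adjusted p = 7.1e-05), 4.53 ± 0.39 for Cxcl5 (adjusted p = 0.000126) and 1.99 ± 0.39 for Cxcl1 (adjusted p = 0.00773). The Cxcl2 fold in WT rests on few untreated reads, 6 counts over the 3 libraries against 455 over the WT DSS libraries. The ratio of those pooled counts, scaled to library size, was 102.9, with a 95% interval of 46.9 to 282 that covers counting error only. For TG the same ratio was 10.7 (7.32 to 16.3), from 230 counts in DSS and 30 in untreated libraries. All 5 of these calls held in the 22 alternatives run for each.

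TG against WT after DSS, the log2 differences were -1.69 ± 0.37 for Cxcl5 (adjusted p = 0.130), -0.94 ± 0.39 for Cxcl2 (adjusted p = 0.392) and -0.86 ± 0.41 for Cxcl1 (adjusted p = 0.480). With 2 libraries in each group, each TG library was below each WT library for all 3 genes, yet none passed the adjustment over all genes. How many of all genes separate in this way was not counted. For Cxcl5 the unadjusted p was 0.000948, and the adjusted p ranged from 0.0110 in DESeq2 to 0.518 over the 22 alternatives. Without WT DSS replicate 1 the Cxcl5 difference was -2.05, with an adjusted p of 0.0489. Summed over the 3 genes, the level was 13.7 and 12.7 CPM in TG DSS libraries and 31.4 and 31.3 CPM in WT DSS libraries. The same sum was 1.73, 4.26 and 3.94 CPM in untreated TG and 1.81, 2.61 and 2.46 CPM in untreated WT, groups that overlapped.

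**Figure D4:**
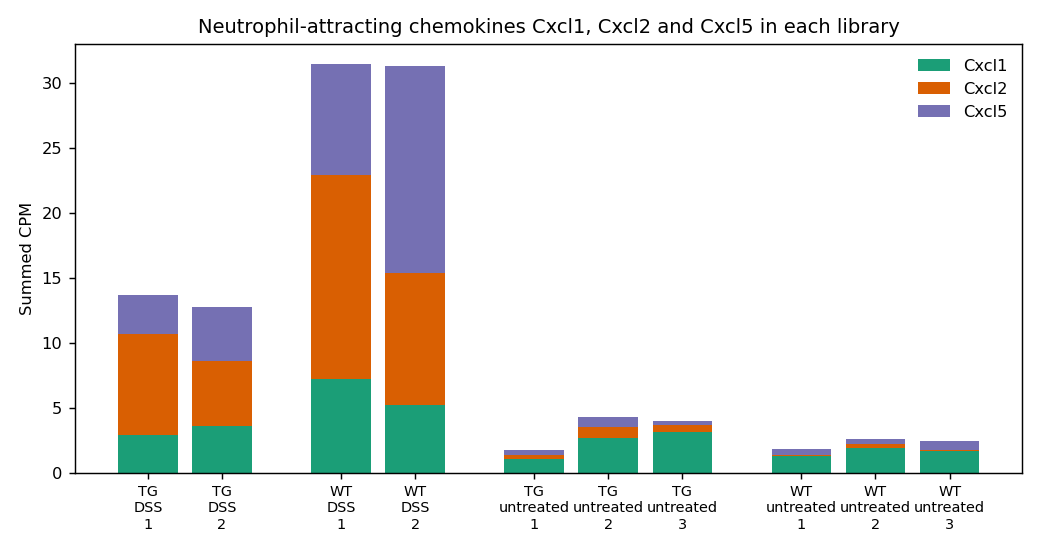
Summed CPM (y axis, bars from 0) of Cxcl1 (green), Cxcl2 (orange) and Cxcl5 (purple), stacked, in each of the 10 libraries. The TG DSS bars reach 13.7 and 12.7 CPM, the WT DSS bars 31.4 and 31.3 CPM, and no untreated bar exceeds 4.26 CPM.

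In untreated tissue, Cxcl2 was at a log2 difference of 2.26 ± 0.66 in TG against WT (unadjusted p = 0.00639, adjusted p = 0.0907). The 3 TG libraries lay above the 3 WT libraries, on 30 counts in TG and 6 in WT, a pooled ratio of 4.76 (95% counting interval 1.95 to 14.0). The adjusted p ranged from 0.0242 in DESeq2 to 0.291 over 21 alternatives, and was 0.0489 without untreated TG replicate 1. Cxcl1 differed by 0.54 ± 0.38 (adjusted p = 0.430) and Cxcl5 by -0.17 ± 0.48 (adjusted p = 0.864), with overlapping groups. The interaction, the log2 change after DSS in TG minus that in WT, was -3.21 ± 0.76 for Cxcl2 (unadjusted p = 0.00176, adjusted p = 0.103). It was -1.40 ± 0.56 for Cxcl1 (adjusted p = 0.353) and -1.52 ± 0.61 for Cxcl5 (adjusted p = 0.354). Leaving out untreated TG replicate 1 gave adjusted p = 0.0352 for Cxcl2 and 0.0494 for Cxcl1, and over 21 alternatives the Cxcl2 value ran from 0.00779 in DESeq2 to 0.276.

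Markers of neutrophils, the cells that Cxcl1, Cxcl2 and Cxcl5 attract, moved with DSS as well. Of 16 listed, 14 were found in some library and 9 were tested: 8 rose after DSS in TG with a median log2 change of 3.45, and all 9 tested rose in WT with a median of 4.22. Summed over the list, the level was 190 to 250 CPM in TG DSS, 147 to 166 CPM in WT DSS, 28.9 to 40.8 CPM in untreated TG and 64.5 to 83.1 CPM in untreated WT. Most of that sum was Ly6g, at 154 and 219 CPM in TG DSS, 100 and 124 CPM in WT DSS, 22.8, 34.2 and 31.4 CPM in untreated TG, and 57.6, 75.3 and 62.6 CPM in untreated WT. S100a8, a calcium-binding protein of neutrophils, had 3.45 and 3.50 CPM in TG DSS, 6.50 and 4.28 CPM in WT DSS, 0.173, 0.120 and 0.121 CPM in untreated TG, and 0 in the 3 untreated WT libraries. Mpo and Elane were listed in no library, and Camp was at 0 in all 4 DSS libraries. Ly6g was thus at 57.6 to 75.3 CPM in untreated WT libraries where S100a8 was at 0. The sum follows Ly6g and cannot be read as a level of neutrophils. Between TG and WT after DSS, 0 of the 9 tested markers were called by edgeR, 1 was at an unadjusted p under 0.05, and the median log2 difference was -0.41. Ly6g was lower in untreated TG than in untreated WT, by -1.07 ± 0.19 (adjusted p = 0.0170, and 0.0807 and 0.0665 without untreated WT replicates 2 and 3), the 1 marker called there. The part of these markers in the chemokine differences was not tested.

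Macrophage and monocyte markers, 12 genes and all tested, moved with DSS too. After DSS 3 rose in TG (Cd14, Cd68 and Csf1r, median log2 change 1.04 over the 12) and 5 rose in WT (Cd14, Itgam, Cd68, Mrc1 and Lyz2, median 1.07). Their sum was 128 and 139 CPM in TG DSS, 180 and 165 CPM in WT DSS, 65.9 to 71.8 CPM in untreated TG and 52.8 to 72.1 CPM in untreated WT. Both TG DSS libraries lay below both WT DSS libraries, the order that Cxcl1, Cxcl2 and Cxcl5 also had. Most of that sum was Cd14, a receptor for bacterial lipopolysaccharide, at 77.5 to 90.1 CPM in TG DSS and 121 to 123 CPM in WT DSS, while the macrophage marker Adgre1 was at 0.347 to 0.875 CPM over the 10 libraries. TG against WT after DSS called 0 of the 12 by edgeR, with 2 at an unadjusted p under 0.05 and a median of -0.06. The order of the sum was not that of every marker, as 5 of the 12 read higher in TG. Among those, C1qa averaged 9.46 CPM in TG DSS and 5.39 CPM in WT DSS, and Csf1r 6.48 and 5.70 CPM. The part of these markers was not tested.

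Inflammatory cytokines and genes of the NF-kB pathway were followed in a list of 21, of which 14 were tested. The list mixes inducers with inhibitors and targets of NF-kB, so its counts and medians do not measure activity upstream of the chemokines. In TG after DSS 3 rose and 0 fell, with a median log2 change of 0.31 over the 14, and in WT 7 rose and 0 fell, with a median of 0.74. Il1b, a macrophage and neutrophil cytokine, had 14.0 and 9.19 CPM in TG DSS, 20.1 and 15.2 CPM in WT DSS, 0.405, 1.08 and 0.970 CPM in untreated TG, and 0.486, 0.994 and 0.585 CPM in untreated WT. It rose by 3.87 ± 0.36 in TG (adjusted p = 0.000324) and 4.74 ± 0.37 in WT (adjusted p = 7.2e-05). Tnf, the inflammatory cytokine that activates NF-kB, had 16.0 and 11.3 CPM in TG DSS, 19.9 and 21.0 CPM in WT DSS, 5.55, 5.59 and 4.61 CPM in untreated TG, and 2.37, 3.98 and 3.25 CPM in untreated WT. It rose by 1.43 ± 0.22 in TG (adjusted p = 0.00466, and 0.0589 without TG DSS replicate 1) and by 2.74 ± 0.22 in WT (adjusted p = 9e-05). Il1a rose by 2.66 ± 0.54 in TG, on 23.7 counts against 5.98, and by 4.29 ± 0.47 in WT. The TG call ended in 5 of 21 alternatives, without TG DSS replicate 1 (0.157) or 2 (0.0683) or untreated TG replicate 2 (0.0624) among them. Nfkbia, the NF-kB inhibitor that NF-kB itself induces, rose by 1.12 ± 0.14 in WT (adjusted p = 0.0010) and stood at 0.28 ± 0.15 in TG (adjusted p = 0.313).

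In untreated tissue 2 of the 14 were higher in TG, Nfkbia by 0.60 ± 0.13 (adjusted p = 0.0366) and Zc3h12a, an RNase that degrades cytokine transcripts, by 0.69 ± 0.16 (adjusted p = 0.0466). The Nfkbia call ended in 11 of 22 alternatives and that of Zc3h12a in 14 of 22. After DSS, TG against WT called 0 of the 14 by edgeR, with 3 at an unadjusted p under 0.05 and a median log2 difference of -0.51. The interaction called 0 of the 14, with 4 at an unadjusted p under 0.05 and a median of -0.45.

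Cxcl9 (chr5:92321331-92328079) had 3.36 and 2.80 CPM in TG DSS libraries, 5.04 and 9.74 CPM in WT DSS libraries, 0.762, 2.11 and 0.611 CPM in untreated TG libraries, and 1.24, 2.85 and 0.852 CPM in untreated WT libraries. Every DSS library of a genotype lay above its untreated ones, and the untreated groups overlapped. In TG the change after DSS was 1.47 ± 0.57 and did not pass (adjusted p = 0.178). In WT Cxcl9 rose by 2.22 ± 0.53 (adjusted p = 0.0177), and the call ended without WT DSS replicate 2 (0.159), untreated WT replicate 1 (0.0712) or untreated WT replicate 3 (0.0627). TG against WT gave -1.19 ± 0.57 after DSS (adjusted p = 0.479) and -0.44 ± 0.55 in untreated tissue (adjusted p = 0.676). The interaction was -0.75 ± 0.79 (adjusted p = 0.802).

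Genes of the interferon gamma pathway that induces Cxcl9 did not all move the same way. Of 10, all tested, 1 rose in TG after DSS (Irf8, a transcription factor of the pathway, by 0.70 ± 0.13), and in WT 3 rose and 1 fell. The median log2 change was 0.28 in TG and 0.21 in WT. Irf8 rose by 0.94 ± 0.13 and the feedback inhibitor Socs1 by 1.33 ± 0.28 in WT. The Socs1 call ended without WT DSS replicate 1 (adjusted p = 0.0668), and the Irf8 call in TG without TG DSS replicate 1 (0.0877) or 2 (0.125). Ifng, the cytokine itself, had 0.621 and 0.438 CPM in TG DSS, 0.518 and 0.834 CPM in WT DSS, 0.462, 0.782 and 1.15 CPM in untreated TG, and 3.64, 7.46 and 3.77 CPM in untreated WT. Thus the 3 untreated WT libraries stood above all 7 others. Ifng fell in WT after DSS by 2.80 ± 0.48 on the log2 scale (adjusted p = 0.00435), where Cxcl9 rose. It was lower in untreated TG than in untreated WT, by -2.55 ± 0.40 (adjusted p = 0.0131, and 0.0550 without untreated TG replicate 2).

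Cxcr3, the receptor of Cxcl9, had 0.847 and 1.53 CPM in TG DSS, 1.04 and 1.06 CPM in WT DSS, 1.62, 2.35 and 3.94 CPM in untreated TG, and 4.49, 8.76 and 5.85 CPM in untreated WT. All 4 DSS libraries lay below all 6 untreated ones. In WT it fell after DSS by 2.54 ± 0.46 on the log2 scale (adjusted p = 0.00573, and 0.0522 without WT DSS replicate 2). Markers of T cells and intraepithelial lymphocytes, which carry Cxcr3 and make Ifng, moved alongside. Of 14 listed, 12 were tested, with 0 higher and 0 lower in TG after DSS by edgeR (7 at an unadjusted p under 0.05) and 9 lower in WT. Their sum was 86.3 to 90.2 CPM in TG DSS, 91.7 to 113 CPM in WT DSS, 91.3 to 308 CPM in untreated TG and 263 to 522 CPM in untreated WT. The part of these cells in the Ifng and Cxcr3 levels was not tested.

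Cxcl16 (chr11:70454389-70459984) rose after DSS in both genotypes and did not separate them. It had 15.1 and 13.4 CPM in TG DSS libraries, 14.4 and 15.4 CPM in WT DSS libraries, 3.33, 7.09 and 5.92 CPM in untreated TG libraries, and 5.36, 8.13 and 5.70 CPM in untreated WT libraries. All 4 DSS libraries lay above all 6 untreated ones, and the genotypes overlapped within each treatment. The rise was 1.45 ± 0.27 in TG (adjusted p = 0.0131) and 1.28 ± 0.27 in WT (adjusted p = 0.0107). In TG the call ended without TG DSS replicate 1 (0.0974) or replicate 2 (0.0856), and in WT without WT DSS replicate 2 (0.0590). TG against WT gave 0.01 ± 0.29 after DSS, with a 95% interval of -0.63 to 0.66 (adjusted p = 0.993), and -0.15 ± 0.25 in untreated tissue, with an interval of -0.72 to 0.41 (adjusted p = 0.757). The interaction was 0.17 ± 0.39 (adjusted p = 0.919).

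Cx3cl1 (chr8:94772180-94782427) had the smallest spread of the 9 over the 10 libraries, an SD of 0.27 in log2 CPM. It had 152 and 155 CPM in TG DSS, 159 and 104 CPM in WT DSS, 140, 101 and 125 CPM in untreated TG, and 143, 139 and 124 CPM in untreated WT. Only the TG DSS libraries stood clear of their untreated group, and the WT DSS pair spanned nearly the whole range. The change after DSS was 0.39 ± 0.20 in TG (95% interval -0.06 to 0.84, adjusted p = 0.328) and 0.02 ± 0.20 in WT (interval -0.43 to 0.48, adjusted p = 0.951). TG against WT gave 0.30 ± 0.22 after DSS (adjusted p = 0.668) and -0.07 ± 0.18 in untreated tissue (adjusted p = 0.860). The interaction was 0.36 ± 0.29 (adjusted p = 0.709).

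Sheddases and their partners, 5 genes and all tested, were followed because Cxcl16 and Cx3cl1 act both on the membrane and as shed proteins. None rose or fell in TG after DSS by edgeR, and none was at an unadjusted p under 0.05. In WT 2 fell after DSS, Timp3, the tissue inhibitor of Adam17, by 1.83 ± 0.22 on the log2 scale (adjusted p = 0.000622), and Rhbdf1, a cofactor of Adam17, by 0.70 ± 0.11 (adjusted p = 0.00317). Timp3 had 6.04 and 4.10 CPM in TG DSS, 4.32 and 3.73 CPM in WT DSS, 4.97, 7.04 and 6.37 CPM in untreated TG, and 14.9, 14.9 and 15.01 CPM in untreated WT. The untreated WT libraries lay above all 7 others. In untreated tissue Timp3 was lower in TG by -1.21 ± 0.18 (adjusted p = 0.0106, and 0.0509 without untreated WT replicate 3). Its interaction was 1.62 ± 0.30 (adjusted p = 0.0406), a call that ended in 11 of 21 alternatives. The sheddases Adam10 and Adam17 were called in no comparison.

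Ccl20 (chr1:83116766-83119167) had 3.73 and 2.41 CPM in TG DSS libraries, 5.18 and 2.89 CPM in WT DSS libraries, 0.405, 1.504 and 0.606 CPM in untreated TG libraries, and 0.182, 0.994 and 1.23 CPM in untreated WT libraries. All 4 DSS libraries lay above all 6 untreated ones, on 7 to 25 counts per untreated TG library and 3 to 19 per untreated WT library. The change after DSS was 1.93 ± 0.61 in TG and did not pass (unadjusted p = 0.0101, adjusted p = 0.103), with an adjusted p that ran from 0.0490 in DESeq2 to 0.401 over 22 alternatives. In WT Ccl20 rose by 2.40 ± 0.61 (adjusted p = 0.0223). That call ended without WT DSS replicate 1 (0.114), untreated WT replicate 1 (0.0571) or untreated WT replicate 2 (0.0569). TG against WT gave -0.33 ± 0.61 after DSS (adjusted p = 0.876) and 0.14 ± 0.64 in untreated tissue (adjusted p = 0.919), with overlapping groups in both. The interaction was -0.47 ± 0.88 (adjusted p = 0.898). Its receptor Ccr6 was barely detected, at 0 to 0.546 CPM over the 10 libraries.

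Ccl25 (chr8:4325205-4360020), the thymic and small intestinal attractant of Ccr9-bearing T cells, was low and passed no test. It had 3.84 and 3.34 CPM in TG DSS, 4.03 and 3.17 CPM in WT DSS, 3.29, 2.83 and 2.67 CPM in untreated TG, and 4.92, 2.49 and 4.09 CPM in untreated WT. The untreated WT libraries held both the highest and the lowest value, and the TG DSS pair lay just above the untreated TG libraries. No contrast passed: 0.35 ± 0.30 after DSS in TG (adjusted p = 0.577), -0.03 ± 0.29 after DSS in WT (adjusted p = 0.961), 0.07 ± 0.32 for TG against WT after DSS (adjusted p = 0.955) and -0.31 ± 0.27 in untreated tissue (adjusted p = 0.538). The interaction was 0.37 ± 0.42 (adjusted p = 0.818). Its receptor Ccr9 had 2.31 and 1.64 CPM in TG DSS, 1.10 and 1.17 CPM in WT DSS, 1.11, 6.23 and 5.58 CPM in untreated TG, and 3.91, 3.69 and 3.65 CPM in untreated WT, and was called in no contrast.

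Ccl28 (chr13:119623819-119654359), the epithelial attractant of IgA plasma cells in the colon, had 136 and 91.3 CPM in TG DSS, 197 and 150 CPM in WT DSS, 75.4, 120 and 127 CPM in untreated TG, and 115, 124 and 116 CPM in untreated WT. The WT DSS pair was the highest of all, and of the TG DSS pair 1 lay above and 1 within the untreated range. In TG the change after DSS was 0.14 ± 0.23 (adjusted p = 0.805). In WT it was 0.62 ± 0.23 and did not pass (unadjusted p = 0.0206, adjusted p = 0.0818), with a range from 0.0188 to 0.391 over 22 alternatives. Ccl28 reached 0.0484 in DESeq2, 0.0230 with the WT libraries fitted alone and 0.0188 without untreated TG replicate 1. TG against WT gave -0.55 ± 0.25 after DSS (adjusted p = 0.458), where both TG libraries lay below both WT libraries, and -0.06 ± 0.21 in untreated tissue (adjusted p = 0.886). The interaction was -0.48 ± 0.32 (adjusted p = 0.631). Ccr10, its receptor, was at 0.364 to 0.847 CPM in the 10 libraries, and the B and plasma cell list, 10 genes, summed to 260 to 270 CPM in TG DSS, 194 to 250 CPM in WT DSS, 331 to 364 CPM in untreated TG and 316 to 336 CPM in untreated WT.

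Of 13 receptors and decoy receptors, 8 had enough counts to test. After DSS in TG 0 rose and 1 fell (median log2 change -0.50), and in WT 1 rose and 3 fell (median -1.13). Cxcr2, the shared receptor of Cxcl1, Cxcl2 and Cxcl5, had 8.26 and 5.02 CPM in TG DSS, 8.83 and 8.45 CPM in WT DSS, 4.53, 4.68 and 4.32 CPM in untreated TG, and 5.65, 5.60 and 5.63 CPM in untreated WT. It rose in WT by 0.68 ± 0.20 (adjusted p = 0.0426), a call that ended in 14 of 22 alternatives, and stood at 0.61 ± 0.21 in TG (adjusted p = 0.124). Cxcr6, the receptor of Cxcl16, had 1.19 and 1.04 CPM in TG DSS, 0.978 and 2.06 CPM in WT DSS, 1.33, 5.41 and 6.07 CPM in untreated TG, and 6.92, 14.2 and 5.91 CPM in untreated WT. It fell in WT by 2.51 ± 0.63 on the log2 scale (adjusted p = 0.0217) where its ligand rose, and the call ended without WT DSS replicate 1 (0.107), WT DSS replicate 2 (0.0815) or untreated WT replicate 2 (0.0659). Cx3cr1 was at 0.659 to 3.06 CPM and called in no contrast.

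Ackr3, a decoy receptor for other CXC chemokines, separated the untreated genotypes, with 0.734 and 0.875 CPM in TG DSS, 0.288 and 0.779 CPM in WT DSS, 4.16, 4.45 and 4.73 CPM in untreated TG, and 1.15, 1.18 and 1.82 CPM in untreated WT. The untreated TG libraries lay above all others. In untreated tissue Ackr3 was higher in TG by 1.76 ± 0.30 (adjusted p = 0.0165), a call that ended when any 1 of untreated TG replicate 2 (0.0540) or untreated WT replicates 1 (0.0739), 2 (0.0871) and 3 (0.0508) was left out. It fell after DSS in TG by 2.40 ± 0.36 on the log2 scale (adjusted p = 0.00467), which ended without either TG DSS library (0.0636 and 0.0564), and in WT by 1.30 ± 0.40 (adjusted p = 0.0468), which ended in 14 of 22 alternatives. Beside it, fibroblast markers, 10 genes, summed to 43.0 to 43.4 CPM in TG DSS, 46.0 to 49.3 CPM in WT DSS, 60.2 to 167 CPM in untreated TG and 74.5 to 124 CPM in untreated WT, and their part was not tested. Ackr4 was at 0.385 to 1.03 CPM and called in no contrast. The untested receptors were near 0, with Cxcr1 at 0 to 0.0576, Ccr3 at 0 to 0.180, Ackr1 at 0 to 0.180 and Ackr2 at 0.0547 to 0.662 CPM.

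**Figure D5:**
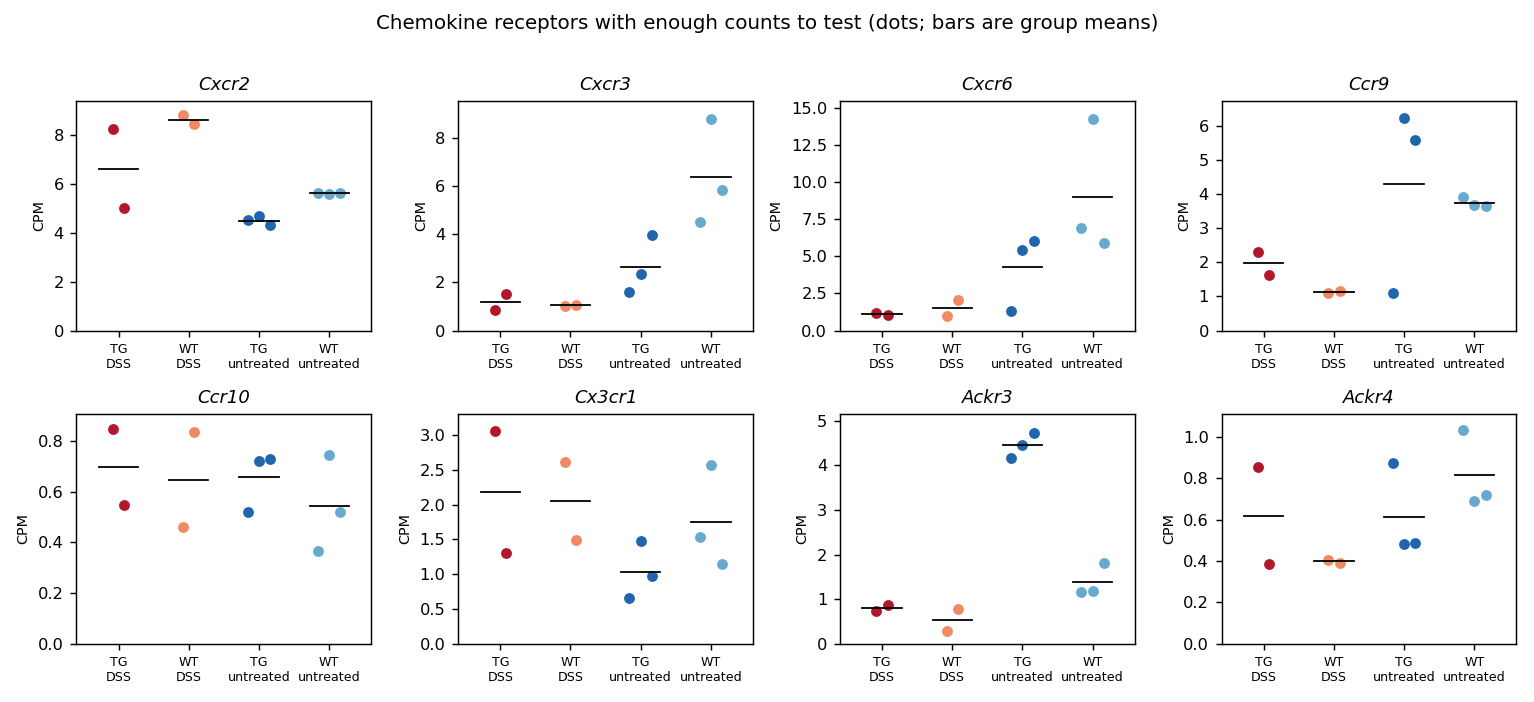
CPM (y axis, linear from 0) of the 8 tested receptors in every library (dots), with the group mean as a bar, for TG DSS, WT DSS, untreated TG and untreated WT. Cxcr3 is at 0.847 to 1.53 CPM in the DSS libraries and 1.62 to 8.76 CPM in the untreated ones, and Ackr3 is at 4.16 to 4.73 CPM in untreated TG and at most 1.82 CPM elsewhere.

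Among 28 further chemokines, 17 were tested. In TG after DSS 0 were called by edgeR (6 at an unadjusted p under 0.05, median log2 change 0.34), and in WT 3 rose and 1 fell (median 0.65). Cxcl10, which shares Cxcr3 with Cxcl9, had 3.22 and 3.50 CPM in TG DSS, 7.54 and 6.62 CPM in WT DSS, 3.18, 2.95 and 3.34 CPM in untreated TG, and 1.40, 2.42 and 0.520 CPM in untreated WT. It rose in WT by 2.34 ± 0.41 (adjusted p = 0.00486) and stood at 0.15 ± 0.41 in TG (adjusted p = 0.888), with an interaction of -2.19 ± 0.59 (adjusted p = 0.141). Cxcl3, a Cxcr2 ligand, was at 0.745 and 0.395 CPM in TG DSS, 2.24 and 0.741 CPM in WT DSS, 0, 0.0692 and 0 CPM in untreated TG, and 0 in the 3 untreated WT libraries. Its 52 counts in WT DSS were 23.5-fold a floor of 3 counts over the untreated WT group, scaled to library size (edgeR adjusted p = 0.00526). Against the 0 counts seen there, the 95% counting interval of the ratio starts at 18.5. Ccl7, a monocyte attractant, rose in WT by 3.27 ± 0.79 (adjusted p = 0.0185) on 36 counts against 5, and Ccl5, a T cell product, fell there by 2.11 ± 0.52 on the log2 scale (adjusted p = 0.0200). The Ccl7 call ended in 5 of 19 alternatives, WT DSS replicate 1 (0.0969) and each untreated WT library left out among them. The Ccl5 call ended without WT DSS replicate 2 (0.164) or untreated WT replicate 2 (0.0567). Between the untreated genotypes Ccl9 was higher in TG by 0.92 ± 0.21 (adjusted p = 0.0442), a call that ended in 13 of 22 alternatives.

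The genes with the pattern most like each chemokine were found by the root mean square difference of centred log2 CPM over the 10 libraries, among 12737 genes, as a description. For Cxcl2 they were S100a8 (0.52), Il1b (0.58) and Mmp13 (0.60), and for Cxcl5 they were Lcn2 (0.59), Slc4a11 (0.64) and Tac1 (0.67). The own spread (SD) of Cxcl2 was 2.51 and that of Cxcl5 1.93 on the same scale. Cxcl1 was nearest to Nrp1 (0.25), Tnip3 (0.31) and Hsp90b1 (0.33), and Cxcl9 to C3 (0.39), Mrc1 (0.43) and Psmb8 (0.56). For Cxcl16 the nearest were Gda (0.21), AW112010 (0.23) and Ccrl2 (0.23), and for Ccl20 they were 2210407C18Rik (0.58), Tnf (0.62) and Csf1r (0.65). Ccl25, at a spread of 0.30, was nearest to Gm1976 (0.18), Gemin8 (0.18) and Gm15706 (0.18). Ccl28 had Ppp1r12a (0.13), Xk (0.14) and Ero1l (0.14), and Cx3cl1 had Man2b2 (0.07), Tmc4 (0.10) and Eif4ebp3 (0.10).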

How the data were processed

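RNA of 10 mouse intestinal libraries was deposited as 1 table per library. Per the file headers these hold expected counts, gene lengths in bases and FPKM per gene, and genes at 0 are not listed. RSEM (version 1.2.12), Bowtie2 (version 2.2.5) and HISAT2 (version 2.0.4) appear, with the mm10 build, in the submitters' processing notes, which give no roles. The deposited expected counts need not be whole: they were whole in all 10 libraries for Cxcl1, Ccl20, Ccl25 and Cx3cl1, and in none for Cxcl9 and Cxcl16, whose reads were thus partly assigned by estimation. The deposited FPKM were used for levels between genes. CPM is the expected count scaled to the library's sum.

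For tests, expected counts were rounded, filtered with filterByExpr (minimum count 10, minimum total 15) and scaled by TMM. All 4 groups were fitted with edgeR 4.0.16 in R 4.3.3 (quasi-likelihood test, Benjamini-Hochberg adjustment over 14072 genes, 5 contrasts). The fit had 6 residual degrees of freedom. Alternatives, 12 settings and 10 omissions of a single library, included DESeq2 1.42.0 and limma 3.58.1 on log2(FPKM + 1), with a pseudocount of 0.1 as well. Group labels came from the sample titles. The genes and the lists were chosen with earlier results of these data known. Values are given for all 9 chemokines and for the receptors. From each other pathway list they are given for up to 4 called members per contrast, those with the smallest adjusted p. Depth, 15393859 to 18284704 expected counts per library, limits the low genes, and counting intervals cover counting error only. Same-numbered libraries were not paired. Promoters came from RefSeq (GRCm38.p6), and Cxcl5 and Cxcl16 were not matched. Proteins were not used here. A result of the interferon gamma list is not reported here.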

Additional observations from a re-analysis of the deposited data

Results flagged for a closer look

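The change from untreated to DSS libraries differed between the genotypes for Ly6g and Timp3, by the interaction term of edgeR's quasi-likelihood test. Those libraries also differ in sex by Xist and Kdm5d, so the term cannot tell a response to DSS from a difference by sex. That term called 0.846% of all genes. Of the gut region lists it also called 2 colon genes and 1 small intestinal gene. For Ly6g, listed here among the neutrophil markers, the interaction was 1.89 ± 0.29 on the log2 scale (SE, adjusted p = 0.0205). It came from a rise of 2.73 ± 0.20 in TG and 0.84 ± 0.20 in WT. That call ended in 5 of 21 alternatives, with an adjusted p of 9.7e-07 to 0.0917. It ended without TG DSS replicate 2 (0.0917), untreated TG replicate 3 (0.0557), or untreated WT replicate 1 (0.0514) or 3 (0.0614). Other neutrophil markers did not share the direction of Ly6g as a set. Over the 9 tested, Ly6g included, the median interaction was -0.47 and 2 were positive. For Timp3, a metalloproteinase inhibitor, the interaction was 1.62 ± 0.30 (adjusted p = 0.0406), from a log2 change of -0.21 ± 0.21 in TG and -1.83 ± 0.22 in WT. It ended in 11 of 21 alternatives, with an adjusted p of 0.000421 to 0.196.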

How the results depend on the processing

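The calls of Cxcl1, Cxcl2 and Cxcl5 after DSS in WT, and of Cxcl2 and Cxcl5 in TG, held in all 22 alternatives. DESeq2 called 1 of the 9 chemokines for TG against WT untreated (Cxcl2, beside 1052 of all genes) and 1 after DSS (Cxcl5, beside 255). It called 1 for the interaction (Cxcl2, beside 426), and edgeR called 0 in each. With 1 library left out, the number called was 0 to 1 for TG against WT untreated, 0 to 1 after DSS, 4 to 7 for DSS in WT, 2 to 3 for DSS in TG and 0 to 2 for the interaction, and the cause was not tested.

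Signs turned only among values that passed no test. For Cx3cl1 after DSS in WT the log2 difference was -0.0242 with upper quartile scaling, -0.0457 with total count scaling, -0.0725 with limma at a pseudocount of 1, with or without the filter, and -0.0747 at 0.1. For Cxcl16 between TG and WT after DSS it was -0.0653 with total count scaling, -0.0055 with the compared groups alone, -0.0596 with limma at a pseudocount of 1, with or without the filter, and -0.0688 at 0.1. Ccl25 there gave -0.00428 with total count scaling. Leaving out 1 library moved TG against WT untreated over -0.65 to 0.12 for Cxcl5, -1.19 to 0.21 for Cxcl9, -0.38 to 0.0919 for Cxcl16, -0.57 to 0.56 for Ccl20, -0.21 to 0.13 for Ccl28 and -0.19 to 0.0475 for Cx3cl1. After DSS it moved over -0.0526 to 0.0754 for Cxcl16, -0.72 to 0.20 for Ccl20, -0.13 to 0.29 for Ccl25 and -0.0054 to 0.68 for Cx3cl1. DSS in WT moved over -0.27 to 0.19 for Ccl25 and -0.36 to 0.32 for Cx3cl1, and DSS in TG over -0.15 to 0.37 for Ccl28. The interaction moved over -0.0796 to 0.39 for Cxcl16 and -0.89 to 0.24 for Ccl20.

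Same-numbered libraries did not deviate together, with correlations of -0.29 to 0.21. With the replicate block, 5 of the 9 were called for DSS in WT, 3 for DSS in TG, and 0 in each comparison of genotypes and for the interaction. The block ended the Ccl20 call in WT (log2 2.57, adjusted p = 0.0635, over a range of 0.00325 to 0.114) and gave Cx3cl1 -0.0245 there.

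Over all genes, the number called was 26 for TG against WT after DSS, against 255 with DESeq2 and 7 with total count scaling, and 4 without TG DSS replicate 1 to 145 without untreated TG replicate 1. Untreated it was 520, against 1052 with DESeq2 and 166 with the block, and 58 without untreated WT replicate 3 to 730 without untreated TG replicate 1. For DSS it was 771 in TG (356 with the block to 1203 with DESeq2, 173 to 1677 with 1 library out) and 2788 in WT (1614 with the block to 3471 with the WT groups alone, 970 to 4112 with 1 library out). For the interaction it was 119 (41 with the block to 426 with DESeq2, 24 to 424 with 1 library out). Genes with few counts in untreated libraries, Cxcl2 among them, limit the precision of their folds.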
